A study of Homo sapiens with 12 samples.

Results

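The human mitochondrial genome carries 37 genes, and all 37 were listed, on chromosome MT, among the 58233 genes of a count table of poly(A)-selected RNA. They were taken by chromosome alone, and no measured value was used to choose them. They comprised 13 mRNAs, 2 rRNAs and 22 tRNAs. Of these, 28 genes (12 mRNAs, 2 rRNAs and 14 tRNAs) lie on the table's plus strand and are copied from the heavy strand of the mitochondrial DNA. The other 9, MT-ND6 and 8 tRNAs, lie on the minus strand and are copied from the light strand. All 37 agree in position and strand with the reference annotation of the mitochondrial sequence.

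The RNA came from HCT116, a line grown from a human colorectal carcinoma. Parental HCT116 cells carried tetracycline-inducible OsTIR1, the rice receptor for the plant hormone auxin, integrated at both AAVS1 alleles. SDS22-degron cells were made from the parental line by fusing mAID-mClover to the endogenous SDS22 gene (PPP1R7), so that their SDS22 protein is degraded when OsTIR1 and auxin are both present. The degron cells had been expanded from isolated colonies, so clonal origin and the tag cannot be told apart in a comparison with the parental line. Each line was either left untreated or given 2 µg/ml doxycycline (Dox) together with 500 µM indole-3-acetic acid (IAA, an auxin) for 48 h. Each of the 4 groups had 3 libraries, described as biological replicates, which gave 12 libraries of 12133915 to 14657508 counts. Effects of Dox, IAA and OsTIR1 cannot be told apart within a line, since all were switched on together. Doxycycline belongs to the tetracyclines, antibiotics known to act on mitochondrial ribosomes. The epithelial genes EPCAM (263 to 306 CPM, counts scaled to a common library size) and KRT8 (1065 to 1841 CPM) were high in every library, while the leukocyte gene PTPRC and the endothelial gene PECAM1 had at most 1 count, and CD3E and COL1A2 had none. COL1A1, a collagen gene of fibroblasts, had 9.88 to 31.8 CPM in every library. The PPP1R7 transcript lay between 40.1 and 51.2 CPM in all libraries, which says nothing of the protein that the degron removes.

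Mitochondrial DNA is transcribed on both strands into long polycistronic RNAs by the polymerase POLRMT with the factors TFAM and TFB2M. tRNAs punctuate these RNAs, and their excision by the mitochondrial RNase P and by ELAC2 releases the mRNAs and rRNAs. Most of the mRNAs then receive a short poly(A) tail from MTPAP. The proteins are core subunits of respiratory complexes I (the ND proteins), III (CYB), IV (the CO proteins) and V (the ATP proteins). MT-ND6, a complex I subunit, is the only mRNA of the light strand and is known to lack a poly(A) tail, so in a poly(A)-selected library its counts need not be proportional to its amount in the cell. A tail also completes the stop codon of several heavy-strand mRNAs. The 3′ ends of the mRNAs show this. Of the 13 mRNAs, 6 ended within a codon, MT-ND1 after 2 bases of it and the other 5 after 1. The last 30 bases of 6 mRNAs are printed here from 5′ to 3′ as GENCODE transcripts give them, with the last codon, or the part of it that is encoded, in capitals. They are shown because some of them end within a codon, and because MT-ND5 and MT-ND6 are neighbours on opposite strands whose ends meet without a gap. These are the ends of the annotated genes, and where tails are added was not mapped in these data. The ends lie at MT:14119-14148 (MT-ND5, heavy), MT:14149-14178 (MT-ND6, light), MT:7416-7445 (MT-CO1, heavy), MT:15858-15887 (MT-CYB, heavy), MT:10375-10404 (MT-ND3, heavy) and MT:12108-12137 (MT-ND4, heavy).
MT-ND5: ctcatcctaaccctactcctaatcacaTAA
MT-ND6: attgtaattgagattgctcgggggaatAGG
MT-CO1: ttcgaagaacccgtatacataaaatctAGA
MT-CYB: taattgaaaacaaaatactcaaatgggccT
MT-ND3: gactacaaaaaggattagactgaaccgaaT
MT-ND4: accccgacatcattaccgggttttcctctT

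MT-ND5 (TAA), MT-ND6 (AGG) and MT-CO1 (AGA) ended in whole codons, whereas MT-CYB, MT-ND3 and MT-ND4 ended in a single T. The strands also differed in base composition. MT-ND6 was 35.6% G and 7.05% C, whereas the 12 heavy-strand mRNAs were 6.28 to 16.2% G and 29.5 to 36.0% C. In the genome, 5 pairs of neighbouring genes overlap. MT-ATP8 and MT-ATP6 share 46 bases, MT-ND4L and MT-ND4 share 7, MT-TI and MT-TQ share 3, and the other 2 pairs share 1. MT-TI and MT-TQ, the tRNA genes with the most counts of their strands, are the only overlapping pair on opposite strands. Both are shown whole, from 5′ to 3′, with the shared bases in capitals, at MT:4263-4331 (MT-TI, heavy) and MT:4329-4400 (MT-TQ, light).
MT-TI: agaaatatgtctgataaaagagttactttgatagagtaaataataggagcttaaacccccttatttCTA
MT-TQ: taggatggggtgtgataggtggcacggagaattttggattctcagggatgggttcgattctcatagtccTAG

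The strand setting of the counting is not given in the sources used here. If strand was not used, reads of MT-ND6 and of the heavy-strand RNA antisense to it cannot be told apart. Reads of overlapping genes may have been split between them or dropped.

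Per kilobase of gene length, MT-CO3 (a complex IV subunit) was the highest and MT-ND6 the lowest of the 15 mRNAs and rRNAs in all 4 groups. In untreated parental cells MT-CO3 stood at 5105 ± 200 CPM per kilobase (SD, n = 3) and MT-ND6 at 417 ± 155. With Dox/IAA in SDS22-degron cells the same levels were 9268 ± 1669 and 139 ± 27.9. MT-ND5 and MT-RNR1 (the small-subunit rRNA) held places 13 and 14 throughout. Much of the order between was within the spread of the libraries: of the 14 neighbouring pairs, 8 overlapped in untreated parental, 11 in Dox/IAA-treated parental, 6 in SDS22-degron cells without and 12 with Dox/IAA. MT-CO1 was in place 9 in Dox/IAA-treated parental cells and in place 5 in the other groups. These are levels of captured RNA, since tail length and cleavage also set how much of a transcript poly(A) selection retains, and in bulk RNA fewer cells of a type and less RNA per cell cannot be told apart.

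**Figure D1:**
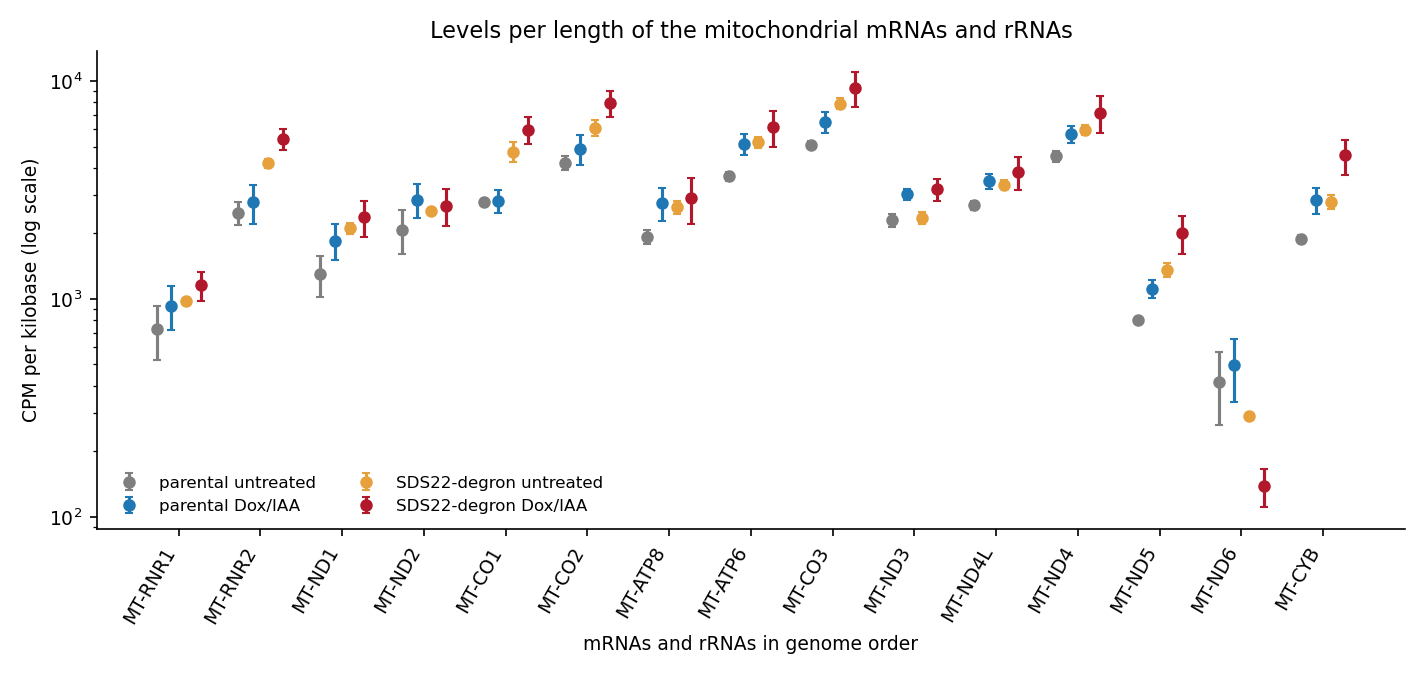
Level of each mitochondrial mRNA and rRNA per kilobase of gene length (CPM per kb, log axis) in the 4 groups; points are means of 3 libraries and bars their SD. MT-CO3 is highest and MT-ND6 lowest in every group, and MT-ND6 is lowest of all after Dox/IAA in SDS22-degron cells, at 139 CPM per kb.

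The parental libraries numbered 2 stood apart from the other parental libraries in both conditions. In CPM, the untreated parental libraries 1, 2 and 3 had 169, 313 and 175 for MT-ND6, and 593, 909 and 569 for MT-RNR1. The treated parental libraries had 216, 356 and 208 for MT-ND6, and 837, 1113 and 714 for MT-RNR1. MT-ND1 and MT-ND2, which follow the rRNAs on the genome, were also highest in library 2 of both parental groups. The results below are therefore also given without both of these libraries where calls change. What set them apart was not tested.

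The share of all counts on mitochondrial genes did not overlap between the libraries of any pair of groups compared here. It was 3.11, 3.45 and 3.26% in untreated parental cells and 4.49, 4.56 and 3.80% in Dox/IAA-treated parental cells. In SDS22-degron cells it was 5.26, 4.65 and 4.87% untreated and 5.26, 6.67 and 7.09% treated. The highest untreated and the lowest treated SDS22-degron library had exact binomial 95% intervals that overlapped (5.24 to 5.27% for both, counting error only). That separation thus rested on a difference smaller than the counting error. The means were 3.27 ± 0.170, 4.28 ± 0.418, 4.93 ± 0.306 and 6.34 ± 0.958% (SD, n = 3) in that order of groups. Treated SDS22-degron cells exceeded treated parental cells by 0.56 on the log2 scale (SE 0.156), a ratio of 1.47, and untreated SDS22-degron cells exceeded untreated parental cells by 0.59 (SE 0.067). With Dox/IAA the share was higher by 0.35 (SE 0.141) in SDS22-degron and by 0.39 (SE 0.094) in parental cells, and these differences differed by -0.03 (SE 0.170), a value whose sign changed with single libraries left out (-0.12 to 0.10). Each of the 4 comparisons gave an exact two-sided permutation p of 0.1, the smallest that 3 libraries against 3 allow. The rRNAs made up 11.1 to 16.7% of the mitochondrial counts and the tRNAs 0.000666 to 0.00186% of all counts.

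Light-strand genes held 0.112 to 0.903% of the mitochondrial counts. The ratio of light- to heavy-strand counts, as a log2 value, was -7.51, -6.78 and -7.54 in untreated parental libraries and -7.65, -6.91 and -7.45 in treated parental libraries. It was -8.37, -8.19 and -8.35 in untreated and -9.65, -9.80 and -9.56 in treated SDS22-degron libraries. For every light-strand count there were thus 159 ± 42.9 and 165 ± 41.2 heavy-strand counts in the parental groups, 316.5 ± 21.6 in untreated and 816 ± 67.9 in treated SDS22-degron cells (SD, n = 3). The ratio was 5.04-fold lower in treated SDS22-degron than in treated parental cells (log2 difference -2.33, SE 0.232) and 2.58-fold lower in treated than in untreated SDS22-degron cells (-1.37, SE 0.090). Untreated SDS22-degron cells lay below untreated parental cells by a log2 difference of -1.03 (SE 0.256). In these 3 comparisons the libraries did not overlap, with an exact two-sided permutation p of 0.1 each. The parental groups overlapped, with a difference of -0.06 (SE 0.333, exact permutation p 0.7). The change with Dox/IAA differed between the lines by -1.30 (SE 0.345). Without the parental libraries numbered 2 the difference was -2.12 between the treated lines, -0.78 between the untreated lines, -0.03 with Dox/IAA in parental cells, and -1.34 between the lines' responses.

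**Figure D2:**
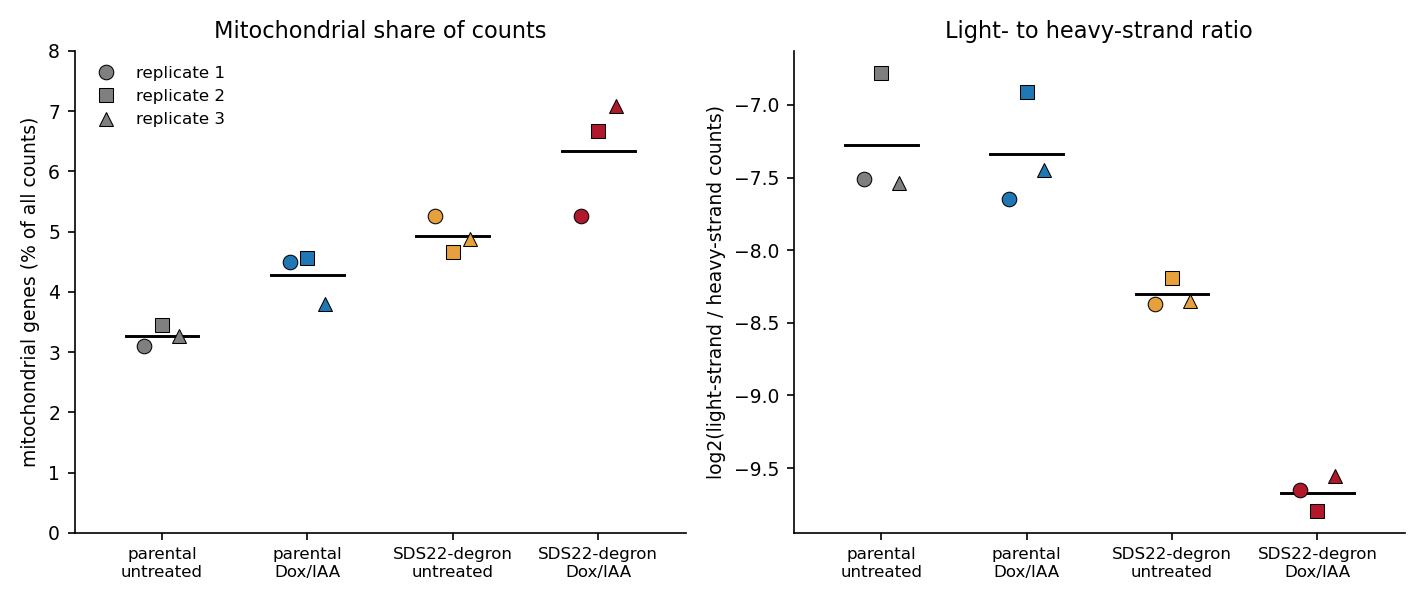
Share of counts on mitochondrial genes (percent, left) and log2 ratio of light- to heavy-strand counts (right) in each of the 12 libraries, by group, with group means. The share is highest in Dox/IAA-treated SDS22-degron cells, between 5.26 and 7.09%, where the strand ratio is lowest, between -9.80 and -9.56.

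As a ratio of summed counts this measure was weighted to 1 gene, since MT-ND6 made up 94.7 to 97.9% of all light-strand counts. With tRNA counts alone, the log2 light to heavy ratio differed by -0.42 between the treated lines (exact permutation p 0.2), by -0.56 between the untreated lines (p 0.3), by 0.34 with Dox/IAA in SDS22-degron cells (p 0.4) and by 0.19 in parental cells (p 0.6). The libraries overlapped in all 4, and the tRNA ratio rested on 34 to 94 heavy-strand and 42 to 135 light-strand counts per library. A mean of log2 counts per kilobase over genes (pseudocount 0.5) weighs each gene alike, tRNAs with few counts included. By this measure the light- minus heavy-strand difference was -1.01 between the treated lines. There all 5 tested light-strand tRNAs also had negative log2 fold changes (-1.27 to -0.61, 2 of them called lower), beside a median of 0.32 over the tested heavy-strand members. Of those 15 heavy-strand members only MT-TI is a tRNA, and its log2 fold change was negative too (-0.52, SE 0.368, not called).

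MT-ND6 (MT:14149-14673, light strand, a single exon) was the member with the lowest adjusted p among those that fell. Its level was 153, 155 and 147 CPM in untreated and 60.3, 69.2 and 88.9 CPM in Dox/IAA-treated SDS22-degron libraries, against the parental values of 169, 313 and 175 untreated and 216, 356 and 208 treated. All 3 treated SDS22-degron libraries lay below every other library, and all 3 untreated SDS22-degron libraries lay below every parental library. Here and below a gene was called where the adjusted p was under 0.05 by the quasi-likelihood test of edgeR, with Benjamini-Hochberg adjustment over the 16657 genes that passed a filter on low counts. Treated SDS22-degron cells held 28.0% of the MT-ND6 level of treated parental cells (log2 fold change -1.84, SE 0.215, adjusted p = 1.95e-06). With Dox/IAA, MT-ND6 fell to 47.9% of its untreated level in SDS22-degron cells (-1.06, SE 0.214, adjusted p = 0.000421). In parental cells the change with Dox/IAA was 0.25 (SE 0.204, 95% interval -0.18 to 0.67, adjusted p = 0.388), and the test of the difference between the lines' responses gave -1.31 (SE 0.296, adjusted p = 0.00597). Between the untreated lines the log2 fold change was -0.53 (SE 0.206, adjusted p = 0.0633), which did not pass the test although the libraries did not overlap. Without the parental libraries numbered 2 these values were -1.53 between the treated lines (adjusted p = 2.09e-09), 0.30 in parental cells (adjusted p = 0.0454), -1.35 for the difference of the responses (adjusted p = 5.21e-06) and -0.18 between the untreated lines (adjusted p = 0.194), by the same test.

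MT-ND5, the heavy-strand neighbour that encodes another complex I subunit, differed the other way between the lines and with Dox/IAA in SDS22-degron cells. With Dox/IAA in parental cells MT-ND5 rose by 0.48 (SE 0.111), where MT-ND6 had 0.25 and was not called. It measured 1428, 1469 and 1429 CPM in untreated and 2227, 1974 and 1851 CPM in treated parental libraries, and 2647, 2292 and 2435 CPM in untreated and 2909, 3635 and 4362 CPM in treated SDS22-degron libraries. The 4 groups did not overlap. For each 100 counts of MT-ND5 there were 11.9, 21.3 and 12.2 counts of MT-ND6 in untreated and 9.69, 18.0 and 11.2 in treated parental libraries. The same ratio was 5.79, 6.77 and 6.04 in untreated and 2.07, 1.90 and 2.04 in treated SDS22-degron libraries. Within a library this ratio does not depend on how the library was scaled, and it separated both SDS22-degron groups from each other and from the parental libraries.

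**Figure D3:**
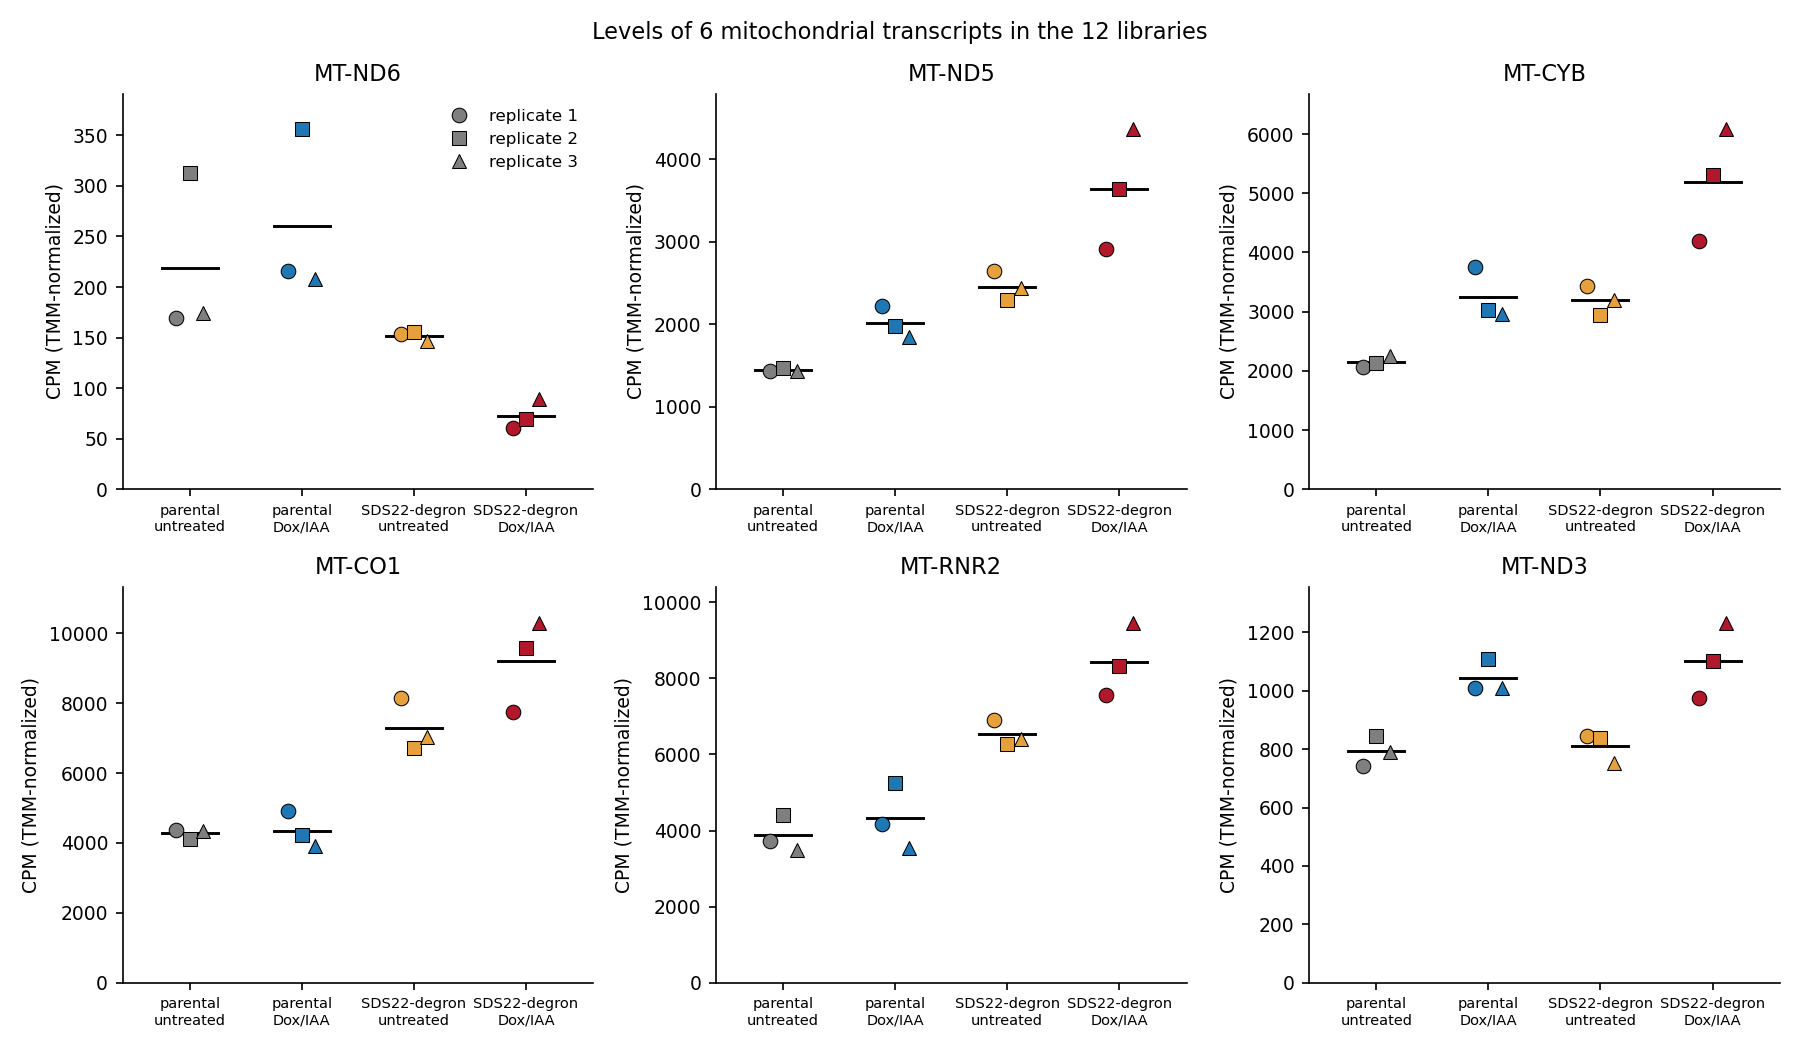
Level in CPM of MT-ND6, MT-ND5, MT-CYB, MT-CO1, MT-RNR2 and MT-ND3 in each library; bars are group means and the marker shape gives the replicate number. MT-ND6 is lowest in Dox/IAA-treated SDS22-degron cells (60.3 to 88.9 CPM), where MT-ND5, MT-CYB and MT-RNR2 have their highest means.

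Of the 37 genes, 21 passed the filter: all 13 mRNAs, both rRNAs and 6 tRNAs. The first comparison set the treated lines side by side, cells losing SDS22 against cells with the same agents and intact SDS22. It also carries the difference that the lines had before treatment. MT-CO1, a catalytic subunit of complex IV, read 4913, 4227 and 3906 CPM in treated parental and 7736, 9576 and 10295 CPM in treated SDS22-degron libraries. The groups did not overlap, and MT-CO1 was higher by 1.08 on the log2 scale (SE 0.109, adjusted p = 3.47e-07 by edgeR's quasi-likelihood test), a 2.12-fold difference. All 3 complex IV mRNAs were higher, MT-CO2 by 0.70 and MT-CO3 by 0.52. MT-CYB, the complex III subunit, was higher by 0.68. Of the 6 heavy-strand complex I mRNAs, MT-ND5 (0.85, SE 0.111, adjusted p = 6.69e-06 by the same test) and MT-ND4 (0.32) were called higher, and the other 4 had log2 fold changes between -0.09 (MT-ND2) and 0.35 (MT-ND1, adjusted p = 0.0608 by the same test). The MT-ND4 libraries overlapped, and its call was lost without treated parental library 3 (0.26), without treated SDS22-degron library 2 (0.27) or 3 (0.21), and with only the groups compared (0.34). With the replicate number as a block, which paired these groups, MT-ND1 was called higher (0.35, adjusted p = 0.0199). Neither complex V mRNA passed the test, with 0.25 for MT-ATP6 and 0.07 for MT-ATP8. Without both parental libraries numbered 2, MT-ND1 (0.53, adjusted p = 0.00115) and MT-ATP6 (0.30, adjusted p = 0.0494) were called higher by the same test. In all, 7 of the 21 tested members (33.3%) were called higher and 3 (14.3%) lower, beside 21.8% and 23.1% of all tested genes. The libraries of 10 members (47.6%) did not overlap, beside 52.9% of all tested genes. The shares called lower and without overlap were thus below the background. The 7 higher members were all heavy-strand genes and the 3 lower were all light-strand genes. All 7 higher members were also called higher between the untreated lines, as given below, and none of them was called in the interaction. The median log2 fold change was 0.32 over the 15 tested heavy-strand and -1.03 over the 6 tested light-strand members, beside -0.01 over all tested genes. These sets differ in RNA type, as 1 of the heavy-strand and 5 of the light-strand members are tRNAs.

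Before treatment the SDS22-degron line already differed from its parent. MT-CO1 read 4375, 4128 and 4338 CPM in untreated parental and 8149, 6731 and 7020 CPM in untreated SDS22-degron libraries, a log2 fold change of 0.77 (SE 0.109, adjusted p = 3.67e-05 by edgeR's quasi-likelihood test). MT-ND5 was higher by 0.77 as well (SE 0.111, adjusted p = 4.85e-05) and MT-CO3 by 0.62 (SE 0.112, adjusted p = 0.000384), by the same test. In 11 members (52.4%) the level was called higher, beside 13.2% of all tested genes, and in 0 lower, beside 15%. At an unadjusted p under 0.05 by edgeR 1 member, MT-ND6, was lower, and DESeq2 also called 0 lower. Without untreated parental library 1 or 3 MT-ND6 was called lower (-0.68 and -0.67). The 11 comprised all 3 complex IV mRNAs, MT-CYB (0.57), MT-ATP6 (0.52) and MT-ATP8 (0.44), MT-RNR2 (0.75), and MT-ND5 (0.77), MT-ND1 (0.70), MT-ND4 (0.41) and MT-ND4L (0.31) of complex I. MT-ND3 (0.03, SE 0.084) and MT-ND2 (0.28, SE 0.149) did not pass the test. Without both parental libraries numbered 2, MT-ND2 was called higher (0.47, adjusted p = 0.00466 by the same test). The calls of MT-ND4, MT-ND4L and MT-ATP8 were lost without untreated SDS22-degron library 1 (0.38, 0.27 and 0.38), that of MT-ND4L also without library 2 (0.33), without untreated parental library 1 (0.29) or 3 (0.31), and that of MT-ATP8 without untreated parental library 3 (0.38). The libraries of 12 members (57.1%) did not overlap, beside 43.5% of all tested genes. This comparison involved neither Dox nor IAA.

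With Dox/IAA in SDS22-degron cells, MT-CYB had the largest rise. It measured 3431, 2936 and 3202 CPM untreated and 4190, 5317 and 6078 CPM treated, without overlap, and was higher by 0.70 (SE 0.116, adjusted p = 5.61e-05 by edgeR's quasi-likelihood test). MT-ND3, a small complex I subunit, read 844, 838 and 753 CPM untreated and 975, 1102 and 1232 CPM treated, a log2 fold change of 0.44 (SE 0.084, adjusted p = 0.000243 by the same test). These libraries did not overlap either. MT-ND5 (0.56, SE 0.111, adjusted p = 0.000326), MT-CO2 (0.38), MT-RNR2 (0.37) and MT-CO1 (0.33) were also called higher, and the MT-CO1 libraries overlapped. Thus 6 members (28.6%) were called higher, beside 26.0% of all tested genes, and MT-ND6 alone (4.76%) lower, beside 25.5%. The libraries of 7 members (33.3%) did not overlap, beside 59.9%. The count of higher members depended on single libraries: it was 3 without treated SDS22-degron library 3 and 10 without treated SDS22-degron library 1. Without library 3, MT-CO1 (0.23), MT-CO2 (0.27) and MT-RNR2 (0.27) lost their calls. MT-CO1 lost it also without treated library 2 (0.30), and both MT-CO1 and MT-RNR2 without untreated library 2 (0.28 and 0.34) or 3 (0.31 and 0.36).

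With Dox/IAA in parental cells, where no degron-tagged protein was present, 10 members (47.6%) were called higher, beside 15.9% of all tested genes, and 0 lower, beside 15.7%. No member was lower at an unadjusted p under 0.05 by edgeR, and DESeq2 called 0 lower. MT-CYB again had the largest change. Its untreated levels were 2061, 2125 and 2246 CPM and its treated levels 3760, 3030 and 2967 CPM, without overlap, a log2 fold change of 0.60 (SE 0.116, adjusted p = 0.000743 by edgeR's quasi-likelihood test). All 6 heavy-strand complex I mRNAs were called higher, between 0.34 (MT-ND4) and 0.51 (MT-ND1), with the smallest p for MT-ND3 (0.40, SE 0.084, adjusted p = 0.00159 by the same test). So were MT-ATP8 (0.51), MT-ATP6 (0.50, SE 0.112, adjusted p = 0.00251) and MT-CO3 (0.34), whereas MT-CO1 (0.02, SE 0.108) and MT-CO2 (0.22, SE 0.112) did not pass the test. The libraries of 10 members (47.6%) did not overlap, beside 41.3%. Without untreated parental library 1, 6 members were called higher, as MT-ND1 (0.37), MT-ND2 (0.31), MT-CO3 (0.30) and MT-ND4 (0.29) lost their calls. Calls were also lost without treated parental library 1 (MT-CO3 and MT-ND4), treated library 2 (MT-ND1, MT-ND2 and MT-CO3) or untreated library 3 (MT-ND2). Without both parental libraries numbered 2, 10 were called higher, with MT-CO3 and MT-ND4 lost and MT-RNR1 and MT-ND6 added. With the replicate number as a block, which paired these groups as well, MT-RNR1 was called higher (0.37, adjusted p = 0.041).

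The difference between the lines' responses to Dox/IAA was tested directly as an interaction. Of the 21 members, 0 were called with a higher response in SDS22-degron cells, beside 6.03% of all tested genes, and 1, MT-ND6, with a lower one, beside 8.35%. At an unadjusted p under 0.05 by edgeR 0 were higher and 2, MT-ND6 and the tRNA MT-TE, lower, and DESeq2 called 0 and 1. For MT-CO1, called with Dox/IAA in SDS22-degron but not in parental cells, the interaction was 0.31 (SE 0.153, 95% interval -0.01 to 0.63, adjusted p = 0.186 by edgeR's quasi-likelihood test). For MT-ATP8, called in parental but not in SDS22-degron cells, it was -0.37 (SE 0.190, adjusted p = 0.202), and for MT-CYB it was 0.10 (SE 0.163). So no heavy-strand member was shown to respond differently in the lines. The 4 comparisons share groups, each group entering 2 of them, so their values are not independent of each other.

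**Figure D4:**
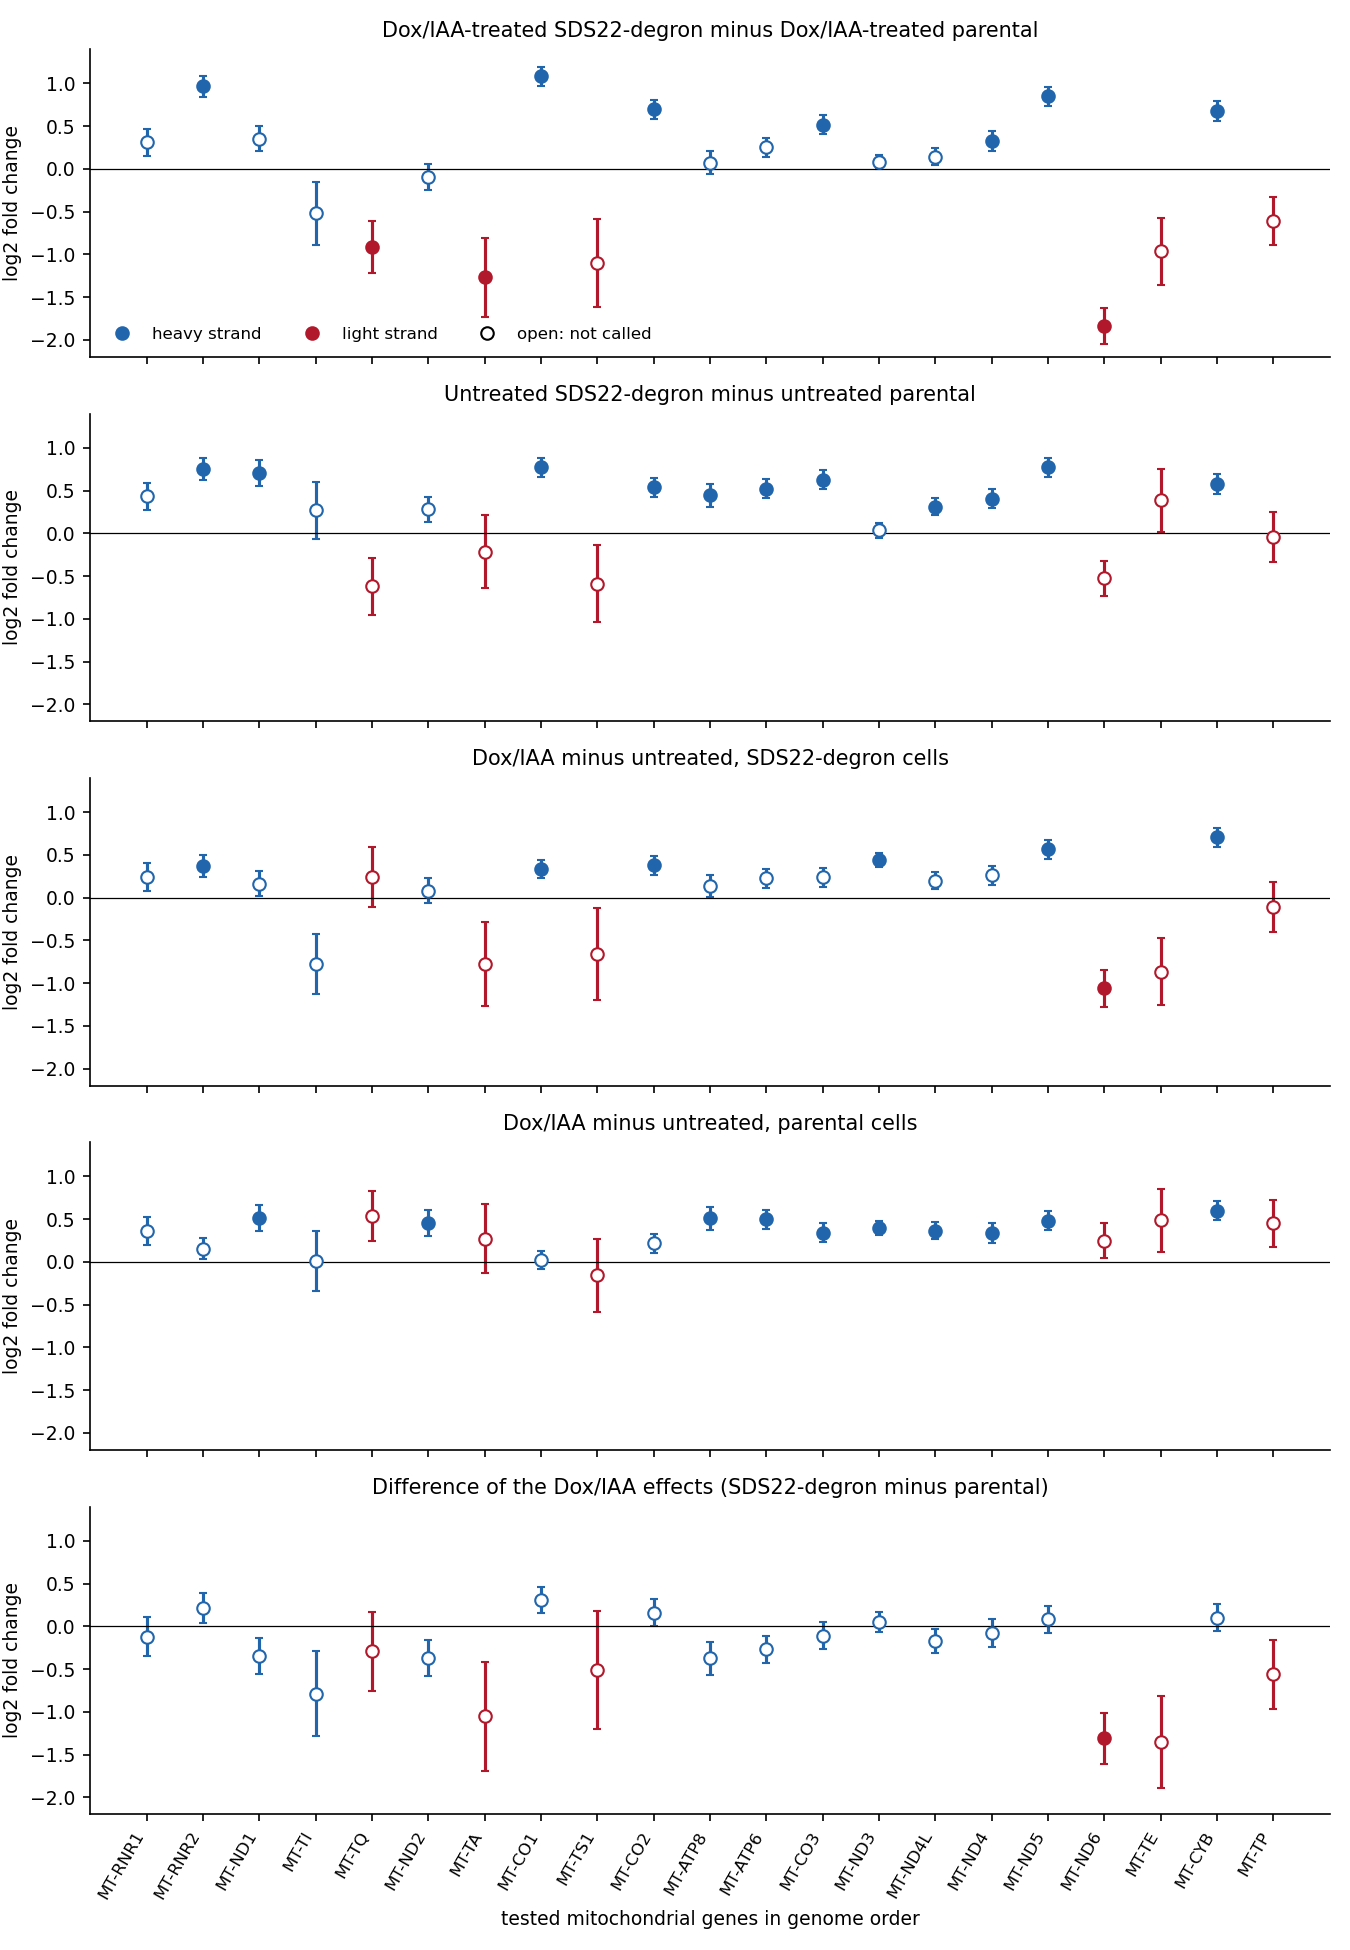
Log2 fold change with its SE for the 21 tested mitochondrial genes in genome order, in 1 panel for each of the 4 comparisons and the interaction; blue marks heavy-strand and red light-strand genes, and filled points passed the test at an adjusted p under 0.05. MT-ND6 lies at -1.84 between the treated lines and at -1.31 in the interaction, where it is the only filled point.

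The rRNAs are the scaffolds of the mitochondrial ribosome and lie first on the heavy-strand transcript. MT-RNR2, the large-subunit rRNA, measured 3730, 4414 and 3476 CPM in untreated and 4159, 5262 and 3530 CPM in treated parental libraries, and 6892, 6287 and 6403 CPM in untreated and 7551, 8312 and 9454 CPM in treated SDS22-degron libraries. Both SDS22-degron groups lay above all parental libraries, and the parental groups overlapped. MT-RNR2 was called higher between the lines, by 0.97 treated (SE 0.125, adjusted p = 5.7e-06 by edgeR's quasi-likelihood test) and 0.75 untreated (SE 0.124, adjusted p = 0.00018). With Dox/IAA it was higher by 0.37 in SDS22-degron cells (SE 0.124, adjusted p = 0.0179), and in parental cells the value was 0.16 (SE 0.124, adjusted p = 0.363), by the same test. MT-RNR1 read 972, 905 and 915 CPM in untreated and 972, 1043 and 1287 CPM in treated SDS22-degron libraries. With the parental libraries given above, its log2 fold changes were 0.31 treated (SE 0.159, adjusted p = 0.122) and 0.43 untreated (SE 0.159, adjusted p = 0.0507 by edgeR's quasi-likelihood test). With Dox/IAA they were 0.24 in SDS22-degron (SE 0.159, adjusted p = 0.215) and 0.36 in parental cells (SE 0.159, adjusted p = 0.0912), by the same test. In the interaction MT-RNR1 had -0.12 (SE 0.225, adjusted p = 0.771) and MT-RNR2 0.21 (SE 0.175, adjusted p = 0.457). Without the parental libraries numbered 2, MT-RNR1 was higher between the lines by 0.52 treated and 0.68 untreated. Both values passed the test (adjusted p = 0.000214 and 3.17e-05 by edgeR's quasi-likelihood test). For each count of MT-RNR1 there were 6.30, 4.85 and 6.11 counts of MT-RNR2 in untreated and 4.97, 4.73 and 4.94 in treated parental libraries. In SDS22-degron libraries there were 6.94 to 7.09 untreated and 7.77, 7.97 and 7.35 treated, all above the parental values.

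The other heavy-strand mRNAs differed in how far their groups separated. MT-ATP6, the membrane subunit of complex V, read 2349, 2569 and 2538 CPM in untreated and 3798, 3648 and 3078 CPM in treated parental libraries, and 3735, 3347 and 3629 CPM in untreated and 3284, 4535 and 4718 CPM in treated SDS22-degron libraries. Only the untreated parental libraries stood apart, below the other 9. MT-ND2, a complex I subunit, read 1703, 2688 and 2101 CPM in untreated and 2649, 3569 and 2702 CPM in treated parental libraries. In SDS22-degron libraries it read 2585, 2564 and 2739 CPM untreated and 2279, 2718 and 3358 CPM treated. These overlapped in all 4 comparisons, with MT-ND2 called only with Dox/IAA in parental cells (0.46, SE 0.149). MT-CO3 ranged from 3822 to 4109 CPM in untreated parental, 4465 to 5452 in treated parental, 5816 to 6541 in untreated SDS22-degron and 5755 to 8041 CPM in treated SDS22-degron libraries, so both SDS22-degron groups lay above all parental libraries and overlapped with each other. MT-ND4, the mRNA with the most counts per library among complex I genes, ranged from 5825 to 6498, 7186 to 8561, 7731 to 8574 and 7666 to 11357 CPM in that order of groups.

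The 22 tRNA genes are 59 to 75 bases long, no longer than the 75-base reads, and mature tRNAs have no poly(A) tail, so their counts describe what poly(A) selection let through and not tRNA levels. In all 12 libraries 7 of them had no count (MT-TV, MT-TN, MT-TC, MT-TK, MT-TG, MT-TR and MT-TL2), which allows up to 3 counts in a library, or 0.205 to 0.247 CPM. MT-TI of the heavy strand had the most, with a mean of 37.9 counts per library, and MT-TQ, printed above beside it, had 25. MT-TQ was measured at 2.55, 4.27 and 1.97 CPM in treated parental and 1.22, 1.24 and 2.22 CPM in treated SDS22-degron libraries, which overlapped. It was called lower by -0.91 (SE 0.307, adjusted p = 0.0212 by edgeR's quasi-likelihood test). MT-TA was at 0.900, 1.74 and 0.629 CPM in treated parental and 0.534, 0.387 and 0.412 CPM in treated SDS22-degron libraries, without overlap, and was called lower by -1.27 (SE 0.464, adjusted p = 0.0328). Treated parental library 2 was highest for both, and without it neither passed the test (-0.53 with adjusted p = 0.184 for MT-TQ and -0.76 with adjusted p = 0.243 for MT-TA, by the same test). The same held without both parental libraries numbered 2 (-0.53 and -0.76). It held too without treated SDS22-degron library 1 (-0.76 and -1.42) or 2 (-0.77 and -1.18), and for MT-TA without library 3 (-1.22). MT-TI had means of 2.96 and 3.02 CPM in untreated and treated parental and 3.61 and 2.10 CPM in untreated and treated SDS22-degron libraries, and MT-TP, with 16 counts per library, had means of 1.17, 1.60, 1.12 and 1.05 CPM. Neither passed the test in any comparison. Between the treated lines MT-TE, MT-TP and MT-TS1, all of the light strand, had log2 fold changes between -1.10 and -0.61 and did not pass. There MT-TI of the heavy strand had -0.52 (SE 0.368). No tRNA was called in the other comparisons or in the interaction.

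Nuclear copies of mitochondrial sequence can take reads from the genes they resemble. The table listed 405 pseudogenes named after mitochondrial genes, and 46 had counts, which made up 0.0421 to 0.0856% of all counts of a library. MTND2P28, MTCO1P12, MTCO2P12 and MTATP6P1, all on chromosome 1, passed the filter. MTCO1P12 was higher by 1.06 between the treated lines (SE 0.171), close to the 1.08 of MT-CO1, and by 0.89 (SE 0.174) between the untreated lines. MTATP6P1 was higher by 0.52 with Dox/IAA in parental cells (SE 0.104), close to the 0.50 of MT-ATP6. Adding the copies' counts to the genes they resemble left the called members at 7 higher and 3 lower between the treated lines and gave 12 higher between the untreated lines. How reads that match both places were assigned is not given in the sources used here.

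Nuclear genes that act on the mitochondrial genome were called lower more often than higher with Dox/IAA in both lines, where all called heavy-strand RNAs were higher. With Dox/IAA in SDS22-degron cells, 8 of 9 transcription genes fell and 0 rose, beside 25.5% and 26.0% of all tested genes. TFB2M, which helps POLRMT open the promoter, fell by 0.82 (SE 0.095), MTERF3 fell by 0.83 (SE 0.085) and POLRMT fell by 0.45 (SE 0.071). Of 20 genes for RNA processing and stability 15 fell and 0 rose, among them TBRG4 (-0.59), ELAC2 (-0.48), PNPT1, the exoribonuclease of the mitochondrial degradosome (-0.74, SE 0.095), its helicase partner SUPV3L1 (-0.46), the mRNA-stabilizing protein LRPPRC (-0.46) with its partner SLIRP (-0.65), and MTPAP (-0.38). PNPT1 measured 36.7, 38.0 and 35.8 CPM untreated and 23.6, 21.8 and 20.9 CPM treated, without overlap. Of 13 genes for mitochondrial DNA maintenance 9 fell, including the helicase TWNK (-0.88) and the protease LONP1 (-0.62), and 2 rose, RRM2B (0.78) and TK2 (0.75), both suppliers of nucleotides. Of 7 tested biogenesis regulators 6 fell, among them PPARGC1B (-1.14, SE 0.111), PPRC1 (-0.76) and NRF1 (-0.46), and of 13 translation factors 7 fell, including the elongation factor TUFM (-0.72), MRRF (-0.76) and MTIF2 (-0.58).

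In parental cells with Dox/IAA, 4 of 9 transcription, 10 of 20 processing, 7 of 13 maintenance, 3 of 7 biogenesis and 5 of 13 translation genes fell, beside 15.7% of all tested genes. RRM2B (0.26) was the only gene of these lists that rose. LRPPRC (-0.46) and SUPV3L1 (-0.44) fell by nearly as much as in SDS22-degron cells. The interaction itself was called for MTERF3 (-0.51), TFB2M (-0.50), FASTKD5 (-0.66), PNPT1 (-0.41), MGME1 (-0.38) and RNASEH1 (-0.41), each with a lower response in SDS22-degron cells, and for RRM2B (0.52) and TK2 (0.53). Between the treated lines 4 transcription genes were lower and 1 higher, 5 processing genes lower and 0 higher, 6 maintenance genes lower and 1 higher, 2 biogenesis regulators lower and 0 higher, and 3 translation factors each way, beside 23.1% of all tested genes lower and 21.8% higher. The translation factors thus lay near that background both ways. The processing genes and biogenesis regulators did so only among the lower genes, with 0 of either higher. Between the untreated lines, where 11 mitochondrial members were higher, 3, 4, 0, 1 and 2 genes of the lists in that order were higher, and 1, 1, 2, 0 and 2 lower, beside 13.2% and 15% of all tested genes. Their part in the mitochondrial RNA levels was not tested.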

How the data were processed

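Poly(A)-selected RNA of 12 libraries (4 groups of 3) was sequenced with stranded single-end 75-base reads. The authors deposited whole-number read counts for each gene, unscaled, with its GC content in percent and length in bases. The submitters' processing notes name cutadapt 1.15, Bowtie2 2.3.3.1, STAR 2.5.2b, SAMtools 1.5, featureCounts 1.5.3 and GRCh38, without order. The strand setting and the handling of reads with several matches are not given in the sources used here.

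Groups came from the sample descriptions, and the sample titles give the replicate numbers. Genes with low counts were removed with filterByExpr (minimum count 10), which left 16657 of 58233, and counts were scaled by TMM (factors 0.971 to 1.03). A 4-group model with edgeR 4.0.16 (R 4.3.3) gave quasi-likelihood tests over all genes with Benjamini-Hochberg adjustment, called at an adjusted p under 0.05. The members were taken by chromosome alone. Earlier results of these data were known when they, the nuclear gene lists and the tests were chosen. Full statistics were given for MT-ND6, MT-RNR1, MT-RNR2 and the 3 mRNAs with the smallest p of each comparison, single values for tRNAs with a mean of at least 10 counts per library, and values for up to 3 called genes of each nuclear list with the smallest p. Other genes were named after their values were seen, for their roles. The share and the strand ratio were compared as log2 values per library with exact two-sided permutation tests. Intervals of shares are exact binomial 95% intervals and, like the limit of 3 counts for a count of 0, cover counting error only. The 15 mRNAs and rRNAs had 790 to 137893 counts per library and gene. Libraries of a group differed beyond sampling noise, so none was counted as a duplicate. The sample titles call the libraries of a group biological replicates and the paper calls them triplicate samples. The p-values measure the spread between these libraries. Libraries with the same replicate number deviated together (correlations of 0.101 to 0.246, all 3 pairs over 0.1) between the parental groups and between the treated groups, so the number was taken to pair those, from the data and not the labels. It did not reach this in the other comparisons. The main fit and the permutation tests did not use this pairing. Sequences are GENCODE transcripts (release 44 mapped to GRCh37), whose mitochondrial genes match the table at 37 of 37 positions (the table's length of MT-RNR2, 1558, is 1 base short of that span), and sequence positions are of that mitochondrial genome. The tests were checked on simulated counts. Alternatives were DESeq2 1.42.0, a likelihood ratio test, other scalings and filters, a GC correction, a replicate block, fits of the compared groups alone and libraries left out, and, chosen after seeing the data, the parental libraries numbered 2 left out and nuclear copies added to their genes.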

Additional observations from a re-analysis of the deposited data

Results flagged for a closer look

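1 result stood out because the same treatment had different effects in the 2 cell lines by a test of the difference itself. For MT-ND6 the response to Dox/IAA was lower in SDS22-degron than in parental cells by a log2 difference of -1.31 (SE 0.296, adjusted p = 0.00597 by the quasi-likelihood test of edgeR, Benjamini-Hochberg adjusted). It was -1.06 in SDS22-degron and 0.25 in parental cells, and without the parental libraries numbered 2 the difference was -1.35. MT-ND6 was lower in 3 of 3 treated SDS22-degron libraries than in every untreated one. PNPT1, TFB2M and MTERF3 were also lower in 3 of 3 treated SDS22-degron libraries than in every untreated one. All of these genes also had lower mean levels with Dox/IAA in parental cells, where MT-ND6 was not called lower. Between the treated lines the PNPT1 libraries overlapped. FASTKD5, MGME1 and RNASEH1 were likewise called in the interaction with a lower response in SDS22-degron cells, and RRM2B and TK2 with a higher one. The part of any of these genes in the MT-ND6 level was not tested.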

How the results depend on the processing

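Directions and calls of MT-ND6 between the treated lines, with Dox/IAA in SDS22-degron cells and in the interaction, and of the mitochondrial share in the 4 comparisons, held under every alternative run. The interaction of the share, -0.03, ran from -0.12 to 0.10 with 1 library left out. The cause of the following moves was not tested unless the alternative itself shows it. The count of members lower between the treated lines, 3, was 5 with a likelihood ratio test, 1 without the parental libraries numbered 2, and 1 to 4 with 1 library left out. Between the untreated lines 1 was lower with a likelihood ratio test, without the filter, with only the groups compared, and with the replicate block, alone or with GC correction, and 0 to 1 with 1 library left out. With Dox/IAA in SDS22-degron cells 11 were higher without the filter and 3 to 10 with 1 library left out, and 2 were lower without the filter, with only the groups compared and with the replicate block, alone or with GC correction (1 to 2 with 1 library left out). In parental cells 6 to 12 were higher with 1 library left out. In the interaction 1 was higher and 6 lower without the filter, and 1 to 2 were lower with 1 library left out (MT-ND2 added without untreated parental library 2, MT-ATP8 without treated SDS22-degron library 2). With tRNAs only the strand ratio differed by -0.42, -0.56 and 0.34 (treated lines, untreated lines, Dox/IAA in SDS22-degron cells) and by 0.15 in the interaction. As a mean of log2 counts per kilobase over genes these were -1.01, -0.25, -0.57 and -0.77. With 1 library left out, Dox/IAA in parental cells gave -0.008 to 0.282 for MT-RNR2 and -0.046 to 0.598 for MT-ND6, with the lowest value of both without treated parental library 2, and the interaction of MT-RNR1 was -0.392 to 0.088. Over all groups 7 of 18 same-numbered pairs of libraries had a correlation over 0.1, and all 3 only between the parental and between the treated groups. In the other 2 comparisons, where the libraries share only a number by this measure, the replicate block added MT-ND6 (-0.48, adjusted p = 0.023, edgeR) and MT-RNR1 (0.46, adjusted p = 0.0144) between the untreated lines and MT-TI (-0.78, adjusted p = 0.01) with Dox/IAA in SDS22-degron cells, and it lost no call of a member in any comparison. Of the tRNAs, 16 had too few counts to be tested.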
